A study of Mus musculus with 7 samples.

Results

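The core circadian clock was followed through 10 transcripts in hepatocytes isolated from WT mice and from WDR6-WKO mice. The members were chosen by symbol: the activators *Arntl* (the gene of BMAL1) and *Clock*, the repressors *Per1*, *Per2*, *Per3*, *Cry1* and *Cry2*, the nuclear receptors *Nr1d1* and *Nr1d2* (REV-ERBα and REV-ERBβ), and the output factor *Dbp*. All 10 were among the 14819 genes of the table and among the 14779 that passed the filter on low counts. None of the 10 passed an adjusted p of 0.05 between genotypes with all 7 libraries, beside 12.8% of all genes tested. Leaving out WDR6-WKO replicate 3, which stood apart from its group, gave 3 of the 10, beside 28.6% of all genes. Outside the 10, *Ciart*, a repressor that works with the same activators, was 4.72-fold higher in WDR6-WKO.

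The hepatocytes came from the livers of male mice, released by collagenase perfusion, cultured in William's E medium with serum and left overnight without treatment. In WDR6-WKO mice, exon 2 of *Wdr6* had been removed with CRISPR–Cas9 in the whole body, so the deletion was not restricted to hepatocytes, and WT mice carried the intact gene. RNA of 4 WT and 3 WDR6-WKO samples was sequenced in 7 libraries, which the study's design text describes as independent experiments. The labels do not name the mouse behind each library, and p-values measure the spread between these samples. The study's methods give purchased C57BL/6J mice aged 7 weeks as its default, without saying whether this holds for the donors of these hepatocytes. The strain background of the WDR6-WKO line and the hour of isolation or harvest are not given in the sources used here. Each library gives 1 level per gene, so the phase and amplitude of a rhythm were not measured.

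The mammalian clock is a feedback loop of transcription. BMAL1 and CLOCK bind as a pair to E-boxes and drive the *Per* and *Cry* genes, whose proteins return to the nucleus and block that pair. A second loop passes through the REV-ERB receptors, which repress *Arntl* at ROR elements, while the ROR receptors activate it there. *Dbp* is a direct target of BMAL1 and CLOCK and carries the rhythm to genes with D-boxes, where NFIL3 opposes it. In the liver these loops time glucose, lipid, haem and bile acid metabolism, and serum or glucocorticoids can reset them in cultured cells.

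The libraries held 17816913 to 23668940 counted reads. The targeted gene, *Wdr6*, had 40.6 to 49.0 CPM (reads relative to a fixed library total, after TMM scaling) in WT and 2.23 to 2.58 CPM in WDR6-WKO, with a log2 fold change of −4.20 (SE 0.11). Every library therefore matched its label. Of its exonic bases, 383 overlap *Dalrd3* on the opposite strand. WDR6-WKO replicate 3 stood apart from its group, with a chi-square per gene of 14.3 and 16.0 against the other WDR6-WKO libraries, which differed from each other by 5.14. Values without that library are given beside the list counts it changes and for each member that then passed. Hepatocyte markers summed over 9 genes gave 15776 to 18753 CPM in WT and 14194 to 16243 CPM in WDR6-WKO. Their levels were uneven. In WT the mean was 7366 CPM for *Alb* and 5845 CPM for *Apob*. It was only 39.4 CPM for *Cps1* and 18.0 CPM for *Cyp2e1*. Of the 9, 5 were lower in WDR6-WKO at an adjusted p under 0.05 (*Cps1*, *Fgb*, *Hnf4a* and *Apoa1* among them), where the share over all genes was 12.8%. Markers of other liver cells were also present. Of 12 Kupffer cell markers 3 were higher in WDR6-WKO (*Lyz2*, *C1qc* and *C1qb*). By sign 11 estimates were higher and 1 lower, that of *Timd4* with a log2 fold change of −0.48 that did not pass. The sum over the 12 was 860 to 939 CPM in WT and 993 to 1191 CPM in WDR6-WKO. Of 9 stellate cell markers 2 were higher (*Acta2* and *Dcn*), with sums of 674 to 735 CPM and 725 to 792 CPM. By sign 6 were higher and 3 lower, *Pdgfrb* (−0.23), *Lrat* (−0.18) and *Col1a1* (−0.03), none of which passed. Of 8 endothelial markers 1 was lower (*Tek*), with sums of 289 to 333 CPM and 270 to 323 CPM. Of 5 cholangiocyte markers 2 were higher (*Spp1* and *Sox9*), with sums of 3068 to 3360 CPM and 3714 to 4306 CPM, most of which was *Spp1*. By sign 3 were higher and 2 lower (*Krt19* and *Krt7*). In WT *Krt19* was at 148 ± 15.3 CPM and *Epcam* at 0.849 ± 0.402 CPM (SD, n = 4). Of 12 genes that follow dedifferentiation in culture 2 were lower (*Krt8* and *Krt18*), with sums of 22154 to 22792 CPM and 19201 to 21113 CPM. Some marker calls were lost when 1 library was left out. That of *C1qb* was lost without WT replicate 1 or 2 or WDR6-WKO replicate 1 or 2 (adjusted p up to 0.118) and with the replicate block (0.0603). *Dcn* lost it without WT replicate 1 or 2 or any WDR6-WKO library (up to 0.0913), *Sox9* without WT replicate 1, 2 or 3 or WDR6-WKO replicate 1 or 2 (up to 0.0937), and *Tek* without WT replicate 3 or 4 or WDR6-WKO replicate 2 (up to 0.0779). Without WDR6-WKO replicate 3 the counts were 7 of 9 lower for hepatocytes, 7 of 12 higher for Kupffer cells, 4 of 9 higher for stellate cells, 1 of 8 lower for endothelial cells and 2 of 5 higher for cholangiocytes. For dedifferentiation they were 2 of 12 higher and 3 lower, and 28.6% of all genes were called in that fit. The part of these differences in the clock gene values was not tested, and in bulk RNA fewer cells of a type and less RNA per cell cannot be told apart.

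The start regions of the clock genes were searched for the elements through which the loop is wired. Windows from 250 bases before to 50 bases after the start were taken from RefSeq (GRCm38.p6) for 9 of the 10 members, with *Per2* not analysed here. The table gives 2 starts for *Arntl*, 3 for *Clock* and 2 for *Per1*, and 1 for each other member. A gene was counted once if any of its windows held a motif. The windows were searched on both strands for the E-box CACGTG, the E-prime box CACGTT, the D-box TTATGTAA or TTACGTAA, and the core of the ROR element, TAGGTCA or TGGGTCA. No E-box overlapped an E-prime box in these windows. The stretches with an E-box, a D-box or a ROR element core are shown because these elements wire the loops to each other, with that motif in capitals and each sequence written 5′ to 3′ on the strand of its gene. The stretch of *Per1* is chr11:69098771-69098800 (plus strand) and holds 1 E-box. The stretch of *Cry1* is chr10:85185097-85185126 (minus strand) and holds 1 E-box. The stretch of *Per3* is chr4:151044804-151044882 (minus strand) and holds 2 D-boxes. The stretch of *Arntl* is chr7:113207530-113207559 (plus strand) and holds 1 ROR element core inside its transcribed part. That of *Ciart*, which is not one of the 10, is chr3:95882255-95882356 (minus strand) and holds 3 E-boxes.
Per1: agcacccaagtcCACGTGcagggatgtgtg
Cry1: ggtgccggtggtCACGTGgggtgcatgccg
Per3: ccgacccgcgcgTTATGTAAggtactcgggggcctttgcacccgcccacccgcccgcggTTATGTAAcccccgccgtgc
Arntl: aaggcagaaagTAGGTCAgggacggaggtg
Ciart: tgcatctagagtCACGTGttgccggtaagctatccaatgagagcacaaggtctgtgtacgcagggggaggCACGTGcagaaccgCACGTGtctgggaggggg

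An E-box was found in the windows of 2 of the 9 members, *Per1* at −166 from the first of its starts, which lies inside the annotated gene, and *Cry1* at −60, and in 8.09% of the 27025 genes with a window. An E-prime box was found in 3 of the 9, *Cry1* at −79, *Cry2* at −166 and *Nr1d1* at −28, and in 5.44% of genes. The RefSeq starts of *Cry2* and *Nr1d1* lie before the first base of these genes in GENCODE, so their positions depend on the annotation. A D-box was found in 1 of the 9, *Per3* at −205 and −158, and in 1.23% of genes. A ROR element core was found in 1 of the 9, *Arntl* at 31 from the second of its starts, and in 7.35% of genes. In *Ciart* the 3 E-boxes began at −116, −58 and −44, and the window of *Nfil3* held a ROR element core at −12. Among other partners and outputs searched, *Insig2* had a ROR element core at −199 from the second of its starts. The windows of *Arntl2*, *Npas2*, *Rora* and *Noct* held no match. No match in the windows of *Clock*, *Nr1d2* and *Dbp* says only that these letters are not there. The matches describe the sequence and are not shown to be bound in these cells.

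**Figure D1:**
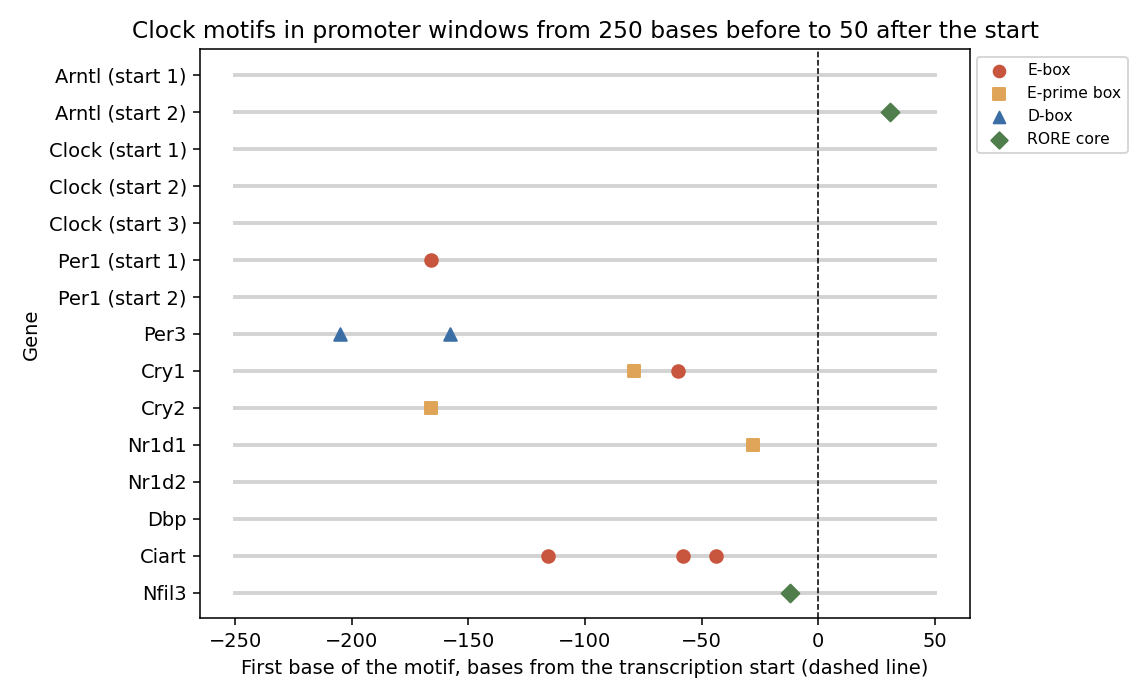
Matches to 4 clock motifs in the RefSeq promoter windows of 9 clock genes, *Ciart* and *Nfil3*, with each grey line a window and the horizontal axis the position of the first base of the motif in bases from the transcription start. *Ciart* holds 3 E-boxes, and *Per3* is the member with 2 D-boxes.

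The clock genes spanned a wide range of expression. Levels between genes were compared as CPM per kilobase of exon, with the length taken over all annotated exons of a gene. In WT the highest member per kb was *Nr1d2* at 11.04 ± 0.331 CPM per kb (SD, n = 4), followed by *Clock* at 9.71 ± 0.630. In CPM *Clock* was the higher of these, at 133 against 59.7. Their order thus rests on exon lengths of 13727 bases for *Clock* and 5409 for *Nr1d2*, and the transcripts in use were not measured. *Cry1* at 6.09 ± 0.596 and *Per1* at 5.97 ± 0.303 came next, and their ranges over the WT libraries overlapped. *Nr1d1* stood at 4.72 ± 0.392 and *Cry2* at 3.01 ± 0.274 CPM per kb. *Arntl* at 1.87 ± 0.243 and *Per2* at 1.59 ± 0.169 also overlapped. *Per3* at 0.499 ± 0.0794 and *Dbp* at 0.232 ± 0.0488 were the lowest. The other neighbours in this order had separate ranges over the 4 WT libraries. The level of *Nr1d2* per kb was 47.5-fold that of *Dbp*.

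In WDR6-WKO the order was the same except that *Per1* at 6.83 ± 0.448 CPM per kb (SD, n = 3) stood above *Cry1* at 6.65 ± 0.285. *Dbp* is counted among strongly cycling liver transcripts, yet only 4.49% of the genes tested had a lower mean CPM in WT. The spread between WT libraries, as a coefficient of variation of CPM, was 3.00% for *Nr1d2*, where counting error alone gives 2.94%. It was 5.07% for *Per1* (counting 3.91%), 6.49% for *Clock* (1.97%), 8.30% for *Nr1d1* (5.96%), 9.11% for *Cry2* (5.20%) and 9.77% for *Cry1* (5.03%). It was 10.6% for *Per2* (7.44%), 13.0% for *Arntl* (6.05%) and 15.9% for *Per3* (10.4%). For *Dbp* it was 21.0%, below the 27.2% that counting alone gives.

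**Figure D2:**
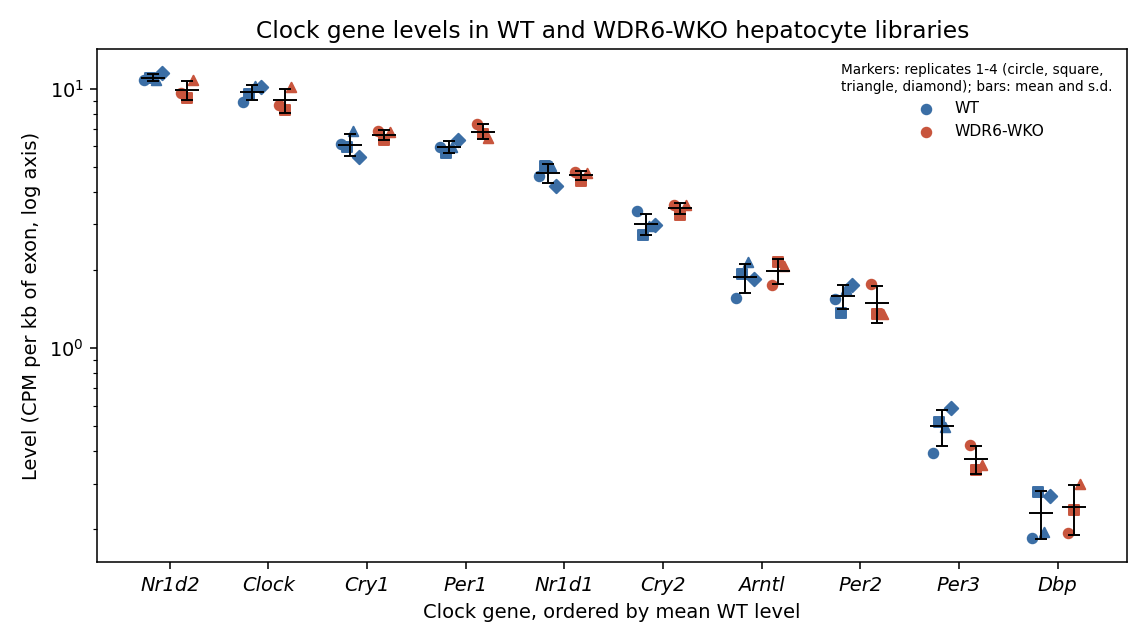
Level of each clock gene in CPM per kb of exon on a log axis, with 1 marker per library (4 WT and 3 WDR6-WKO) and bars for the mean and SD. *Nr1d2* and *Clock* are highest, *Per3* and *Dbp* lowest, and the order of the genes is nearly the same in both genotypes.

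The comparison between genotypes asked whether loss of *Wdr6* went with altered clock transcripts. None of the 10 members passed an adjusted p of 0.05 in edgeR's quasi-likelihood test, against 12.8% of all genes tested (6.65% higher and 6.18% lower in WDR6-WKO). DESeq2 and limma-voom also called none of the 10. At an unadjusted p under 0.05 there were 4 of 10 members (*Per1*, *Per3*, *Cry2* and *Nr1d2*), against 28.1% of all genes. The libraries of the genotypes had separate CPM ranges for 2 of 10 (*Per1* and *Nr1d2*), against 23.5% of all genes. The paper calls genes at a log2 fold change of at least 0.35 in either direction and P below 0.05, here taken unadjusted. These thresholds were met by 1 of 10 (*Per3*), against 10.4% of all genes. *Per3* no longer met them with the replicate block or without WT replicate 2, WT replicate 4 or WDR6-WKO replicate 2. The estimates were higher in WDR6-WKO for 5 members and lower for 5. Their median log2 fold change was 0.01, and that of all genes tested was also 0.01. The median absolute log2 fold change was 0.12 among the members and 0.13 among all genes.

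Over all genes, 983 were called higher and 914 lower, a split that became 1212 and 696 when library sizes alone were used for scaling. With that scaling *Per1* was the 1 member called, with a log2 fold change of 0.22 and an adjusted p of 0.0495. Without WDR6-WKO replicate 3 the test called 28.6% of all genes and 3 of the 10 members. These were *Clock* with a log2 fold change of −0.20 (adjusted p = 0.00450), *Per1* with 0.23 (adjusted p = 0.00862) and *Nr1d2* with −0.23 (adjusted p = 0.00235). The share of members was close to the share of all genes in that fit.

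**Figure D3:**
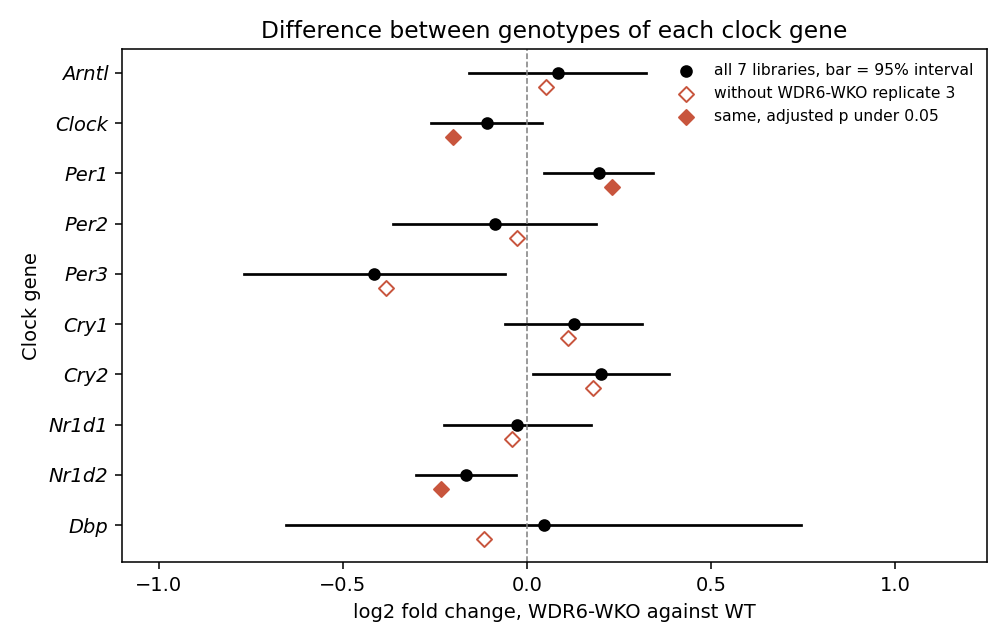
Log2 fold change of WDR6-WKO against WT for each clock gene, with black points and 95% intervals from all 7 libraries and red diamonds without WDR6-WKO replicate 3 (filled where the adjusted p is under 0.05). With all 7 libraries the intervals of *Per1*, *Per3*, *Cry2* and *Nr1d2* leave out 0, and without that library *Clock*, *Per1* and *Nr1d2* pass the adjusted threshold.

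Among the activators, *Arntl* encodes BMAL1, the partner without which the loop stops. *Arntl* (chr7:113207465-113314126, plus strand) had 11.7, 14.6, 16.2 and 13.9 CPM in WT replicates 1 to 4 and 13.1, 16.2 and 15.5 CPM in WDR6-WKO replicates 1 to 3. The groups overlapped over most of their range. Its exons share 33 bases with the antisense gene *Gm45355*, which was not analysed here. WDR6-WKO against WT gave a log2 fold change of 0.08 (SE 0.11), with a 95% interval of −0.16 to 0.32 and an adjusted p of 0.682 in edgeR's test. *Clock* encodes the other partner of the pair. *Clock* (chr5:76209868-76304792, minus strand) had 122, 131, 141 and 139 CPM in WT and 118, 114 and 139 CPM in WDR6-WKO. WDR6-WKO replicates 1 and 2 lay below every WT library, and replicate 3 lay among them. With all libraries the log2 fold change was −0.11 (SE 0.07), with an interval of −0.26 to 0.04 and an adjusted p of 0.344, so the call without replicate 3 rests on which libraries enter.

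The 3 *Per* genes encode the repressors that accumulate each day and are cleared through phosphorylation by casein kinases. Their estimates had different signs, and none passed an adjusted p of 0.05 with all 7 libraries. *Per1* (chr11:69095217-69109960, plus strand), which also responds quickly to serum and glucocorticoids, had 33.5, 31.7, 33.5 and 35.8 CPM in WT. In WDR6-WKO it had 41.3, 37.8 and 36.4 CPM. All 3 WDR6-WKO libraries lay above all 4 WT libraries, but replicate 3 was above the highest WT library by less than counting error. The means were 33.6 ± 1.71 CPM (SD, n = 4) and 38.5 ± 2.52 CPM (SD, n = 3), a difference of 14.4%. The log2 fold change was 0.20 (SE 0.07), with a 95% interval of 0.05 to 0.34 and an adjusted p of 0.0770. In edgeR's test without WDR6-WKO replicate 3 the adjusted p was 0.00862. A two-sided exact permutation test gave p = 0.0571, where 4 against 3 libraries allow a smallest p of 0.0286.

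*Per2* (chr1:91415982-91459324, minus strand), whose loss shortens and then abolishes the rhythm in mice, had 9.08, 8.01, 9.89 and 10.2 CPM in WT and 10.3, 7.89 and 7.93 CPM in WDR6-WKO. WDR6-WKO replicate 1 was the highest of the 7 libraries and replicates 2 and 3 were the lowest. The estimate for *Per2* was a log2 fold change of −0.09 (SE 0.13), with an interval of −0.36 to 0.19 and an adjusted p of 0.717. *Per3* is the *Per* gene least needed for the rhythm itself. *Per3* (chr4:151003652-151044665, minus strand) had 3.78, 4.97, 4.79 and 5.62 CPM in WT and 4.07, 3.26 and 3.41 CPM in WDR6-WKO. The ranges overlapped through WT replicate 1, which lay below WDR6-WKO replicate 1. The means were 4.79 ± 0.763 and 3.58 ± 0.433 CPM, and the value in WDR6-WKO was lower by 25.3%. Its log2 fold change was −0.41 (SE 0.17), the largest in size among the members in this fit, with an interval of −0.77 to −0.06 and an adjusted p of 0.118. The exact permutation test gave p = 0.0857. These values rest on 61 to 112 reads per library.

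The cryptochromes are the stronger repressors of BMAL1 and CLOCK. *Cry1* (chr10:85131700-85185064, minus strand) had 20.4, 19.8, 23.0 and 18.2 CPM in WT and 22.9, 21.1 and 22.7 CPM in WDR6-WKO. WT replicate 3 was the highest library, and the groups overlapped. For *Cry1* the log2 fold change was 0.13 (SE 0.09), with an interval of −0.06 to 0.31 and an adjusted p of 0.371. *Cry2* (chr2:92403646-92434043, minus strand) had 21.4, 17.3, 18.6 and 18.8 CPM in WT and 22.5, 20.6 and 22.6 CPM in WDR6-WKO. The groups overlapped only through WT replicate 1, which lay above WDR6-WKO replicate 2. The means were 19.0 ± 1.73 and 21.9 ± 1.08 CPM, a difference of 15.0%. The log2 fold change was 0.20 (SE 0.09), with an interval of 0.02 to 0.39, an adjusted p of 0.145 and p = 0.0857 in the exact permutation test. Of the exonic bases of *Cry2*, 295 overlap the antisense RNA *D930015M05Rik*, and whether the counts used the strand is not given in the sources used here. That RNA had 0.451 ± 0.0485 CPM in WT and 0.794 ± 0.236 CPM in WDR6-WKO, far below *Cry2* itself.

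The REV-ERB receptors bind haem and repress *Arntl* and many lipid genes. *Nr1d1* (chr11:98767932-98775333, minus strand) had 14.2, 15.4, 15.5 and 13.0 CPM in WT and 14.7, 13.6 and 14.5 CPM in WDR6-WKO. All 3 WDR6-WKO libraries lay inside the WT range. For *Nr1d1* the log2 fold change was −0.03 (SE 0.09), with an interval of −0.23 to 0.17 and an adjusted p of 0.899. The sign of this estimate turned when library sizes alone were used for scaling. *Nr1d1* shares 263 exonic bases with *Thra* on the opposite strand, and *Thra* had 6.08 ± 0.957 CPM in WT and 6.07 ± 1.10 CPM in WDR6-WKO.

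*Nr1d2* (chr14:18204054-18239127, minus strand), which can stand in for *Nr1d1* in the loop, had 58.6, 59.4, 58.4 and 62.3 CPM in WT and 51.9, 49.9 and 58.3 CPM in WDR6-WKO. All WDR6-WKO libraries lay below all WT libraries, but replicate 3 was below the lowest WT library by less than counting error. The means were 59.7 ± 1.79 and 53.3 ± 4.38 CPM, and the value in WDR6-WKO was lower by 10.6%. The log2 fold change was −0.16 (SE 0.06), with an interval of −0.30 to −0.03 and an adjusted p of 0.106. In edgeR's test without WDR6-WKO replicate 3 the adjusted p was 0.00235. The exact permutation test gave p = 0.0286, the smallest it can give with these libraries. Across all genes 23.5% had separate ranges, as *Nr1d2* had.

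*Dbp* (chr7:45705088-45710203, plus strand) is often read as an output of BMAL1 and CLOCK activity. It had 11, 16, 11 and 16 reads in WT and 14, 15 and 16 reads in WDR6-WKO. In CPM these were 0.555, 0.838, 0.585 and 0.803 in WT and 0.582, 0.709 and 0.894 in WDR6-WKO, and the groups overlapped, with WDR6-WKO replicate 3 the highest library. Summed over libraries, *Dbp* had 0.695 CPM in WT (exact 95% Poisson interval 0.522 to 0.907, for counting error only) and 0.713 CPM in WDR6-WKO (0.520 to 0.954). For *Dbp* the log2 fold change was 0.05 (SE 0.33, adjusted p = 0.950), and its interval ran from 0.636-fold to 1.68-fold. At this depth a difference within that interval is not excluded, and a larger one could also fail to pass the adjusted threshold. *Dbp* shares 539 exonic bases, 18.0% of its length, with *Sphk2* on the opposite strand. *Sphk2* had 29.1 ± 2.50 CPM in WT and 30.8 ± 5.76 CPM in WDR6-WKO, far above *Dbp*, so reads of the shared stretch are a limit on the level of *Dbp*.

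Ratios within a library do not depend on how libraries are scaled, and are given as descriptions with no test. On the log2 scale of levels per kb, *Dbp* to *Arntl* was −3.08, −2.79, −3.46 and −2.78 in WT and −3.17, −3.19 and −2.79 in WDR6-WKO. The groups overlapped, and their means differed by −0.02. *Per1* to *Per3*, a pair chosen after their values were seen, was 3.92, 3.44, 3.58 and 3.44 in WT and 4.11, 4.31 and 4.19 in WDR6-WKO. Every WDR6-WKO library lay above every WT library, and the means of 3.60 ± 0.225 and 4.20 ± 0.0980 differed by 0.61. *Per1* to *Nr1d2*, chosen in the same way, was −0.86, −0.96, −0.86 and −0.86 in WT and −0.39, −0.46 and −0.74 in WDR6-WKO. The groups were again separate, with means of −0.89 ± 0.0522 and −0.53 ± 0.185 that differed by 0.36, and WDR6-WKO replicate 3 lay closest to WT. Without that library the differences were 0.61 for *Per1* to *Per3* and 0.46 for *Per1* to *Nr1d2*.

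**Figure D4:**
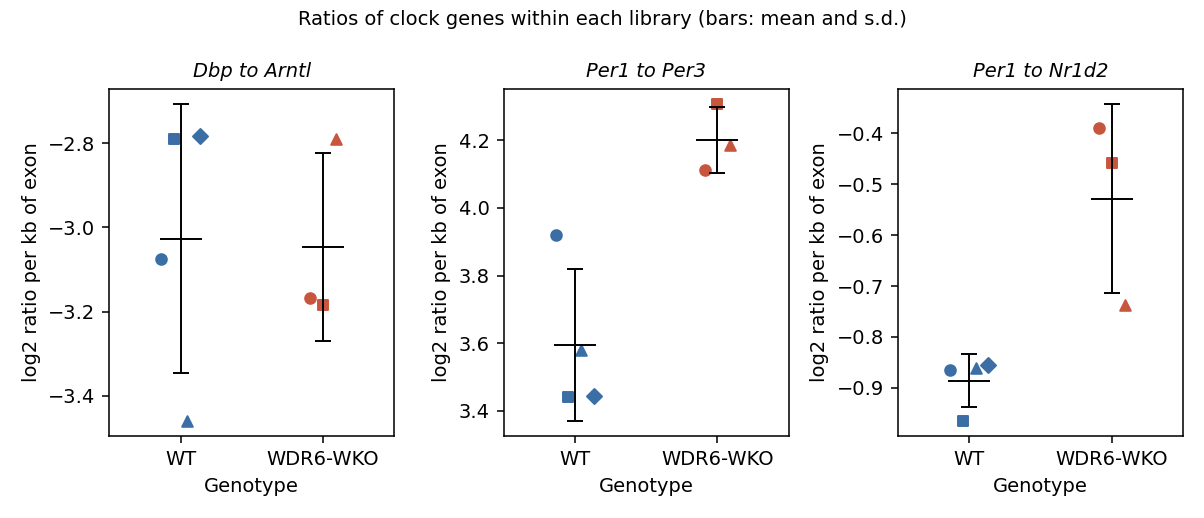
Log2 ratio of levels per kb within each library for *Dbp* to *Arntl*, *Per1* to *Per3* and *Per1* to *Nr1d2*, with 1 marker per library and bars for the mean and SD in WT (n = 4) and WDR6-WKO (n = 3). The *Dbp* to *Arntl* ratios overlap between genotypes, while the other ratios, chosen after their values were seen, do not.

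The gene most alike to each clock gene over the 7 libraries was sought among the 57 other members, partners and outputs by the root mean square difference of centred log2 CPM, where smaller is more alike. *Nr1d2* was most like *Bhlhe40*, with a difference of 0.0371. *Clock* was most like *Csnk2a1* at 0.0539, with *Nr1d2* next at 0.0661. *Nr1d1* was closest to *Csnk1a1* at 0.0782. *Cry1* and *Per1* were both closest to *Prmt5*, at 0.0820 and 0.0826, and *Cry2* was closest to *Per1* at 0.0994. The low genes, which also vary more between libraries, had larger differences. These were *Per2* with *Tef* at 0.127, *Arntl* with *Nampt* at 0.133, *Per3* with *Slc2a2* at 0.164 and *Dbp* with *Coq10b* at 0.205. Measured in the same way, the difference from a flat profile was 0.107 for *Nr1d2*, 0.117 for *Clock* and 0.0872 for *Nr1d1*. It was 0.117 for *Cry1*, 0.118 for *Per1* and 0.138 for *Cry2*. For the low genes it was 0.165 for *Per2*, 0.158 for *Arntl*, 0.273 for *Per3* and 0.262 for *Dbp*. *Nr1d1* and *Arntl* were thus little closer to their nearest gene than to a flat profile. These libraries share scaling and differ in depth, and the values describe likeness in 7 libraries only.

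Among the partners of the clock the calls went in both directions. Of 29 listed genes that act with or on the members 28 were tested. *Ciart* and *Nfil3* rose in WDR6-WKO, *Arntl2*, *Rora*, *Bhlhe40*, *Ncor1* and *Nono* fell, and 21 did not pass the test. That is 25% called, beside 12.8% of all genes. The median log2 fold change of the list was −0.05, beside 0.01 over all genes. The count fell to 4 with the replicate block and without each of the other 6 libraries in turn. It was 9 of 28 without WDR6-WKO replicate 3, where 28.6% of all genes were called.

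*Ciart* encodes CHRONO, a repressor that binds BMAL1 and CLOCK at E-boxes and is itself driven by them. *Ciart* had 20, 13, 13 and 16 reads in WT and 63, 91 and 78 reads in WDR6-WKO. In CPM these were 1.01, 0.681, 0.691 and 0.803 in WT and 2.62, 4.30 and 4.36 in WDR6-WKO. The lowest WDR6-WKO library had more than the highest WT library. The log2 fold change was 2.22 (SE 0.25), with a 95% interval of 3.21-fold to 6.72-fold and an adjusted p of 2.79e-05. Leaving out each library in turn gave log2 fold changes of 2.10 to 2.43. *Ciart* shares 11.9% of its 50-base sequences with the transcript *Gm9176*, so reads of that stretch may be counted on either. *Per1* and *Cry1*, the members with the same E-box in their windows, had log2 fold changes of 0.20 and 0.13 that did not pass with all 7 libraries. Whether the E-boxes have a part in these values was not tested.

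*Nfil3* encodes the repressor that competes with DBP at D-boxes. *Nfil3* had 26.2, 27.5, 27.6 and 27.7 CPM in WT and 35.7, 40.7 and 40.4 CPM in WDR6-WKO. The groups were separate, with a log2 fold change of 0.51 (SE 0.07) and an adjusted p of 0.000150. The other D-box factors, *Tef* and *Hlf*, are relatives of *Dbp*. *Tef* had 29.1 ± 1.02 and 26.2 ± 1.75 CPM, with a log2 fold change of −0.15 (adjusted p = 0.187), and *Hlf* had 3.86 ± 0.290 and 3.63 ± 0.553 CPM. *Per3*, the member with D-boxes in its window, had a log2 fold change of −0.41 that did not pass. A link between this value and *Nfil3* was not tested.

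*Arntl2* encodes BMAL2, the paralog of BMAL1. *Arntl2* had 32.8, 29.9, 31.9 and 34.99 CPM in WT and 25.7, 23.4 and 27.0 CPM in WDR6-WKO. It fell by 0.35 on the log2 scale (SE 0.08, adjusted p = 0.00753), with separate ranges. *Arntl2* was higher per gene length than *Arntl* in these cells, at 5.69 CPM per kb in WT. *Npas2*, the paralog of *Clock*, had 5.55 ± 0.529 and 4.43 ± 0.691 CPM, with a log2 fold change of −0.33 (adjusted p = 0.167).

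*Rora* encodes an activator of *Arntl* at the elements that REV-ERB represses. *Rora* had 92.5, 90.8, 104 and 101 CPM in WT and 75.0, 70.0 and 87.1 CPM in WDR6-WKO. It fell by 0.33 (SE 0.07, adjusted p = 0.00840), and WDR6-WKO replicate 3 lay closest to WT. *Rorb* was not analysed here. *Arntl* itself, with a ROR element core in its window, had a log2 fold change of 0.08. A link between this value and *Rora* was not tested.

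The last 3 of the called partners moved little and near the threshold. *Bhlhe40*, which encodes the E-box repressor DEC1, had 209 ± 2.54 CPM in WT and 187 ± 7.76 CPM in WDR6-WKO and fell by 0.16 (adjusted p = 0.0326). *Ncor1*, the co-repressor that REV-ERB recruits, had 233 ± 7.57 and 209 ± 6.39 CPM and fell by 0.16 (adjusted p = 0.0391). *Nono*, an RNA-binding partner of PER proteins, had 304 ± 8.61 and 275 ± 5.32 CPM and fell by 0.14 (adjusted p = 0.0458). Each of the 3 lost its call when library sizes alone were used for scaling, with the replicate block (adjusted p of 0.0751, 0.0768 and 0.110) and when any library other than WDR6-WKO replicate 3 was left out, with adjusted p up to 0.121, 0.152 and 0.157. *Nono* shares 15.0% of its 50-base sequences with other transcripts. *Bhlhe41*, the relative of *Bhlhe40*, had 4.20 ± 0.649 and 3.78 ± 0.432 CPM and a log2 fold change of −0.14 (adjusted p = 0.626).

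Enzymes that set the stability of PER and CRY proteins were read beside the 12.8% of all genes called, a share at which few calls fall in so short a list. None of the 5 casein kinase and GSK3 genes passed in edgeR's test, with *Csnk1a1* at 267 ± 6.0 and 259 ± 10.2 CPM and a log2 fold change of −0.04 (adjusted p = 0.574). *Csnk1d* and *Csnk1e*, the kinases that mark PER proteins, had log2 fold changes of −0.05 (adjusted p = 0.552) and 0.01 (adjusted p = 0.955). None of the 5 ubiquitin ligase and protease genes passed either, and DESeq2 and limma-voom called 0 in both groups. *Fbxw11*, a ligase subunit for PER proteins, had 142 ± 2.63 and 146 ± 5.76 CPM. At an unadjusted p under 0.05 the count was also 0 in both groups, beside 28.1% of all genes. Among the co-repressors and other partners, *Ddb1* had 1167 ± 18.4 and 1072 ± 9.09 CPM, with a log2 fold change of −0.12 (adjusted p = 0.0645).

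Outputs of the clock in liver were split in direction. Of 22 listed genes 20 were tested, with *Cyp7a1* and *Elovl3* not analysed here. In WDR6-WKO 3 genes rose, *Noct* and *Nampt* among them, 4 fell (*Insig2*, *Hspa8*, *Lpin1* and *Alas1*), and 13 did not pass. That is 35% called beside 12.8% of all genes, with a median log2 fold change of −0.14 beside 0.01. The count fell to 4 without WT replicate 1, WT replicate 2 or WDR6-WKO replicate 2. It was 10 of 20 without WDR6-WKO replicate 3, beside 28.6% of all genes.

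*Noct*, the phosphatase nocturnin, had 77.4, 73.4, 75.4 and 66.7 CPM in WT and 102, 93.1 and 101 CPM in WDR6-WKO, with a log2 fold change of 0.43 (SE 0.06, adjusted p = 0.000224). Its annotated exons share many stretches with other transcripts, among them 20.9% of its 50-base sequences with *Gm42860*, so its counts are uncertain. *Nampt*, the rate-limiting enzyme of NAD salvage, had 76.3, 81.9, 84.3 and 89.5 CPM in WT and 90.3, 94.7 and 102 CPM in WDR6-WKO. Its log2 fold change was 0.20 (SE 0.06, adjusted p = 0.0455). The call was lost with median-of-ratios size factors and without WT replicate 1, 2 or 3 or WDR6-WKO replicate 1 or 2, with adjusted p up to 0.128.

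*Insig2*, which holds back the lipogenic factor SREBP, had 91.6, 95.5, 97.4 and 94.7 CPM in WT and 75.8, 74.5 and 74.6 CPM in WDR6-WKO. Every WDR6-WKO library lay well below WT, and it fell by 0.34 (SE 0.05, adjusted p = 0.000374). *Hspa8*, a constitutive chaperone, had 2674 ± 89.0 and 2167 ± 153 CPM and fell by 0.30 (SE 0.05, adjusted p = 0.00114), and it shares 34.6% of its 50-base sequences with *Gm15459*. *Lpin1*, a phosphatidate phosphatase, had 31.1 ± 1.71 and 26.2 ± 0.577 CPM and fell by 0.25 (SE 0.07, adjusted p = 0.0328). *Alas1*, the first enzyme of haem synthesis, had 108 ± 2.13 and 95.0 ± 4.06 CPM and fell by 0.18 (SE 0.05, adjusted p = 0.0291). The calls of *Lpin1* and *Alas1* were lost with library sizes alone. That of *Lpin1* was lost with the replicate block too (adjusted p = 0.0964). Both were also lost without several single libraries, WDR6-WKO replicate 2 most of all, where adjusted p was 0.120 and 0.108. *Por*, the output with the highest level among those that did not pass, had 385 ± 18.1 and 379 ± 29.8 CPM and a log2 fold change of −0.02 (adjusted p = 0.844).

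**Figure D5:**
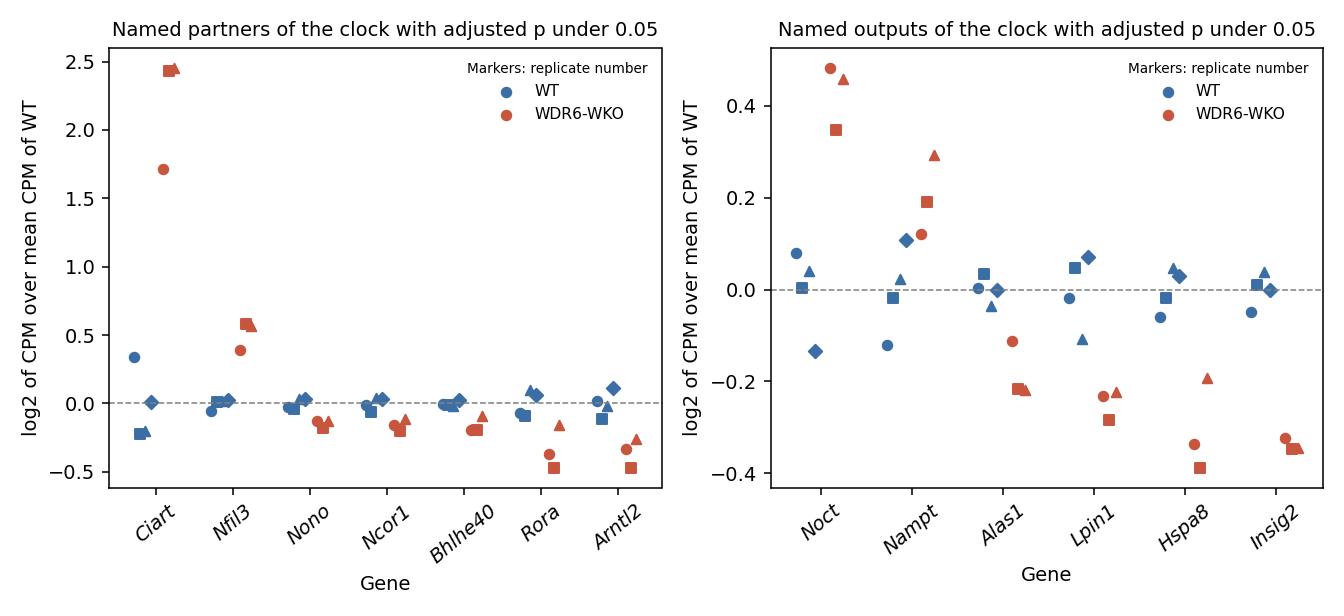
Log2 of CPM over the WT mean for the 7 partners (left) and the 6 named outputs (right) of the clock with an adjusted p under 0.05, with 1 marker per library. *Ciart* lies far above WT in all 3 WDR6-WKO libraries, while *Nono*, *Ncor1* and *Bhlhe40* lie just below it.

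Lists of genes that respond to glucocorticoids, or to serum and stress, were read beside *Per1*, which answers to both. Of 15 glucocorticoid-responsive genes 4 were called (26.7%, beside 12.8% of all genes). *Lcn2*, a secreted acute-phase protein, rose from 1631 ± 96.3 to 2230 ± 30.9 CPM (log2 fold change 0.45, adjusted p = 1.95e-05). *Tsc22d3* (GILZ), a mediator of glucocorticoid action, rose from 43.3 ± 3.80 to 55.2 ± 4.77 CPM (0.35, adjusted p = 0.00741). *Angptl4*, an inhibitor of lipoprotein lipase, rose from 215 ± 12.4 to 258 ± 19.1 CPM (0.26, adjusted p = 0.00772). *Pck1*, the gluconeogenic enzyme, was low in both genotypes and fell from 1.47 ± 0.586 to 0.427 ± 0.177 CPM (−1.73, adjusted p = 0.00925). *Fkbp5* and *Sgk1*, direct targets of the receptor, had log2 fold changes of −0.11 (adjusted p = 0.206) and 0.10 (adjusted p = 0.183), and *Mt1* had 0.29 (adjusted p = 0.130). Without WDR6-WKO replicate 2 *Angptl4* had an adjusted p of 0.0505. Without WDR6-WKO replicate 3 the count was 9 of 15, beside 28.6% of all genes.

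Of 12 immediate early genes 6 were called (50%, beside 12.8% of all genes), 5 higher and 1 lower. *Atf3*, a stress-induced factor, rose from 21.3 ± 2.31 to 40.6 ± 2.73 CPM (log2 fold change 0.93, adjusted p = 3.25e-06). *Fosb* rose by 0.70 (adjusted p = 0.00608), *Fosl1* by 0.59 (adjusted p = 3.12e-05), *Myc* by 0.30 (adjusted p = 0.00156) and *Jun* by 0.30 (adjusted p = 0.0191). *Egr1*, a serum-responsive factor, fell from 179 ± 11.5 to 128 ± 1.67 CPM (−0.49, adjusted p = 2.90e-05), and *Klf6* had 0.12 (adjusted p = 0.0653). *Fosb* lost its call without WDR6-WKO replicate 1 (adjusted p = 0.0562). *Jun* lost it without WT replicate 2 or 4 or WDR6-WKO replicate 1 or 2, with adjusted p of 0.0547 to 0.101. *Fos* had a log2 fold change of −0.28 (adjusted p = 0.112). Of the exonic bases of *Fosl1*, 57.2% lie opposite *Ccdc85b*, and 232 bases of *Jun* lie opposite *Junos*, so without a known strand setting their counts are uncertain. The count was 4 without WDR6-WKO replicate 1, and 9 of 12 without WDR6-WKO replicate 3, where 28.6% of all genes were called.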

How the data were processed

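RNA of primary hepatocytes (WT, n = 4; WDR6-WKO, n = 3) was sequenced on an Illumina HiSeq platform, and the submitters' processing notes name Bowtie2 2.2.3 and the mm10 build. The authors deposited read counts per gene symbol, not normalized. The counting tool, annotation and strand setting are not given in the sources used here. The table has 14819 rows with a smallest row total of 50, and 21 rows are labelled with spreadsheet dates. They were tested but given no gene name.

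Counts were tested with edgeR 4.0.16 in R 4.3.3 (TMM scaling, expression filter, robust quasi-likelihood test, no replicate block), with Benjamini-Hochberg adjustment over 14779 genes. The biological coefficient of variation was 7.40%. Same-genotype libraries had a Spearman correlation of 0.992 to 0.996 and differed by more than sampling noise, and each was counted once. CPM are TMM-scaled, and intervals on counts cover counting error only. Single genes were also tested by an exact two-sided permutation of the libraries, with a smallest possible p of 0.0286. On simulated data with 200 changed genes, the test recovered 130 with 13 false calls among 14705 genes tested. At log2 changes of 0.35, 0.7 and 1 it recovered 26 of 72, 50 of 64 and 54 of 64. These simulated data held far fewer changed genes than the 1897 called here, and no library that stood apart. The recovered shares need not hold for the measured data.

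Alternatives were other tests (DESeq2 1.42.0, voom in limma 3.58.1), other scaling (library sizes alone, median-of-ratios size factors), other filters (a minimum of 10 counts in each library, or none), a replicate block, other fold thresholds and each library left out. The groups share replicate numbers, but same-numbered samples come from mice of different genotype. Exon lengths, positions and overlaps came from GENCODE M21 (GRCm38), and promoter windows from RefSeq (GRCm38.p6), matched by symbol for 9 of 10 members.

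The members, gene lists and tests were chosen with earlier results of these data known. The text names every member, *Wdr6*, genes overlapping a member, list genes with an adjusted p under 0.05 (up to 8 per direction, 4 per marker list), the highest gene of each group that did not pass, and the nearest gene by likeness. A few list genes that meet this rule are not reported here. Other partners, receptor targets and markers named as not passing or for their level were chosen after their values were seen. So were the ratios of *Per1* to *Per3* and *Nr1d2*.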

Additional observations from a re-analysis of the deposited data

Results flagged for a closer look

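In 49 values checked for a sample far from the others of its group, 3 stood out by Dixon's criterion, where chance gives about 1 in 20. None was a clock gene of the core set. *Nfil3* in WT replicate 1 was at 26.2 CPM, below the other WT libraries at 27.5 to 27.7 CPM, and all of them lay below WDR6-WKO. *Angptl4* in WT replicate 3 was at 233.7 CPM, above the other WT libraries, and *Lyz2* in WT replicate 3 was at 52.4 CPM.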

How the results depend on the processing

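Of 140 values of the 10 clock genes under the alternatives, 129 kept their direction and their side of the threshold, 4 passed it and 7 changed sign. The sign changed for *Nr1d1*, which became 0.00138 with library sizes alone, 0.00601 and 0.00661 without WT replicates 2 and 3 and 0.00886 without WDR6-WKO replicate 2, within −0.076 to 0.00886 over the libraries left out. It changed for *Dbp*, which became −0.05 and −0.03 without WT replicates 1 and 3 and −0.12 without WDR6-WKO replicate 3, within −0.12 to 0.19. Of 545 values of other named genes, 478 were the same, 67 no longer passed and 0 changed sign. The number of clock genes called was 1 with library sizes alone and 0 to 3 when a library was left out. The number past the paper's thresholds was 0 with the replicate block and 0 to 1 when a library was left out. *Per3* lost it without WT replicate 2, WT replicate 4 or WDR6-WKO replicate 2. Partners called were 4 with the replicate block and 4 to 9 when a library was left out, outputs 4 to 10, glucocorticoid-responsive genes 3 to 9 and immediate early genes 4 to 9. In all genes 1032 to 4233 were called when a library was left out and 1762 with the replicate block, beside 1897. The paper's thresholds gave 1532 genes, 217 with a log2 fold change of 1, 4160 with none and 1258 to 1952 when a library was left out. The cause of these changes was not tested. Same-numbered samples of the genotypes had correlations of deviations of 0.197, 0.0927 and 0.146, and WT replicate 1 correlated best with WDR6-WKO replicate 2 at 0.289, so the numbers were not taken as pairs. The *Dbp* to *Arntl* difference lay between −0.16 and 0.06 when a library was left out. Depth limits *Dbp*, whose counting error exceeds its spread between WT libraries.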
